A study of Mus musculus with 2 samples.

Results

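The genes described here encode brakes on JAK-STAT signalling: 6 members of the suppressor of cytokine signalling (SOCS) family (Socs1, Socs2, Socs3, Socs5, Socs6 and Cish), 3 protein tyrosine phosphatases (Ptpn2, Ptpn6 and Ptpn11) and 1 SUMO ligase, Pias1. They were chosen by name, and every probe set annotated to 1 of them was taken, which gave 29 probe sets for 10 of the 18193 genes on the array. Their transcripts were read in RNA from 2 mouse primary cultures of the retinal pigment epithelium (RPE), a pigmented layer that supports the photoreceptors. Both cultures had been kept in medium with 20% serum for 14 days, were then moved to serum-free medium overnight before RNA extraction, and were described in the labels as 95% cytokeratin-positive. One was left untreated, and the other received interferon gamma (IFNg) at 100 U/ml for 24 h. The labels leave unsaid how the serum-free night and the hours with IFNg overlapped. Mouse strain, age and the number of animals behind a culture were not given in the labels.

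Each group was 1 culture on 1 array. No difference has a replicate check or a p-value, and "higher" and "lower" describe these 2 arrays. Deposited signals (intensities on a linear scale) had medians of 20.1 on the untreated and 20.8 on the IFNg array. Signals under the pooled median of 20.4, called the floor here, were set to it before the log2 ratio of IFNg over untreated was taken, so only a bound can be given where 1 array lies at the floor, and nothing where both do. The spread these data hold is that between probe sets of 1 gene. Over 4419 genes with several probe sets above the floor on both arrays, the SD of the log2 ratio within a gene was 0.44, which leaves out the spread between cultures. Marker genes were read on the same arrays, each by its brightest probe set. Of 15 RPE markers, 10 were above the floor on 1 or both arrays, among them Otx2 (signals of 410.9 and 388.5), Tyr (986.1 and 605.7) and the keratin gene Krt18 (1390.4 and 2445.9), while the visual cycle isomerase Rpe65 was at the floor on both (5.0 and 1.1); 4 of the 10 were 2-fold lower with IFNg, namely Ttr, Tyrp1, Rdh5 and Rlbp1, and 0 were 2-fold higher. All 10 fibroblast and mesenchymal markers were above the floor on both arrays, with Col1a1 at 11026.1 and 9774.7, and 0 passed 2-fold. Of 5 endothelial markers 4 were measured and 0 passed 2-fold, and of 6 matched photoreceptor and neural retina markers 3 were measured, with the neuronal tubulin Tubb3 higher (15.0 and 155.7) and Rom1 lower (98.3 and 33.3).

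IFNg binds the receptor chains IFNGR1 and IFNGR2, which activate the kinases JAK1 and JAK2; these phosphorylate STAT transcription factors, which enter the nucleus and switch on target genes. SOCS1 is an induced feedback inhibitor that binds and blocks the JAKs, and its SOCS box recruits an elongin-cullin ubiquitin ligase. PTPN2 removes phosphate from JAK1 and from STAT proteins, PTPN6 (SHP-1) and PTPN11 (SHP-2) act at cytokine and growth factor receptors, and PIAS1 limits the access of activated STAT proteins to promoters. In a stimulated epithelium these brakes bear on how long and how strongly the interferon response runs.

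Of the 10 genes, Socs1 had by far the highest ratio: its transcript was 5.79-fold higher on the IFNg array. Ptpn2 (1.85-fold) and Socs2 (1.84-fold) came next, both short of 2-fold by the brightest probe set of the gene but past it by another. Pias1, Socs6 and Cish were higher by smaller factors, and Socs3, Socs5, Ptpn6 and Ptpn11 were slightly lower. By count, 1 of 10 members was at least 2-fold higher and 0 were 2-fold lower, a higher share (10%) close to the background of 8.82% of the 12743 genes measured (above the floor on at least 1 array); 4.48% of those genes were 2-fold lower. The members' median log2 ratio was 0.35, against -0.12 over all genes measured. From the highest ratio to the lowest the order was Socs1, Ptpn2, Socs2, Pias1, Socs6, Cish, Ptpn11, Socs5, Socs3 and Ptpn6. Of the 9 gaps between neighbours in that order, 1 exceeded the SD of 0.44, the gap of 1.64 between Socs1 and Ptpn2; the next was 0.37. A ratio above 0 was found for 6 of 10 members and for 42.5% of all genes measured.

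**Figure D1:**
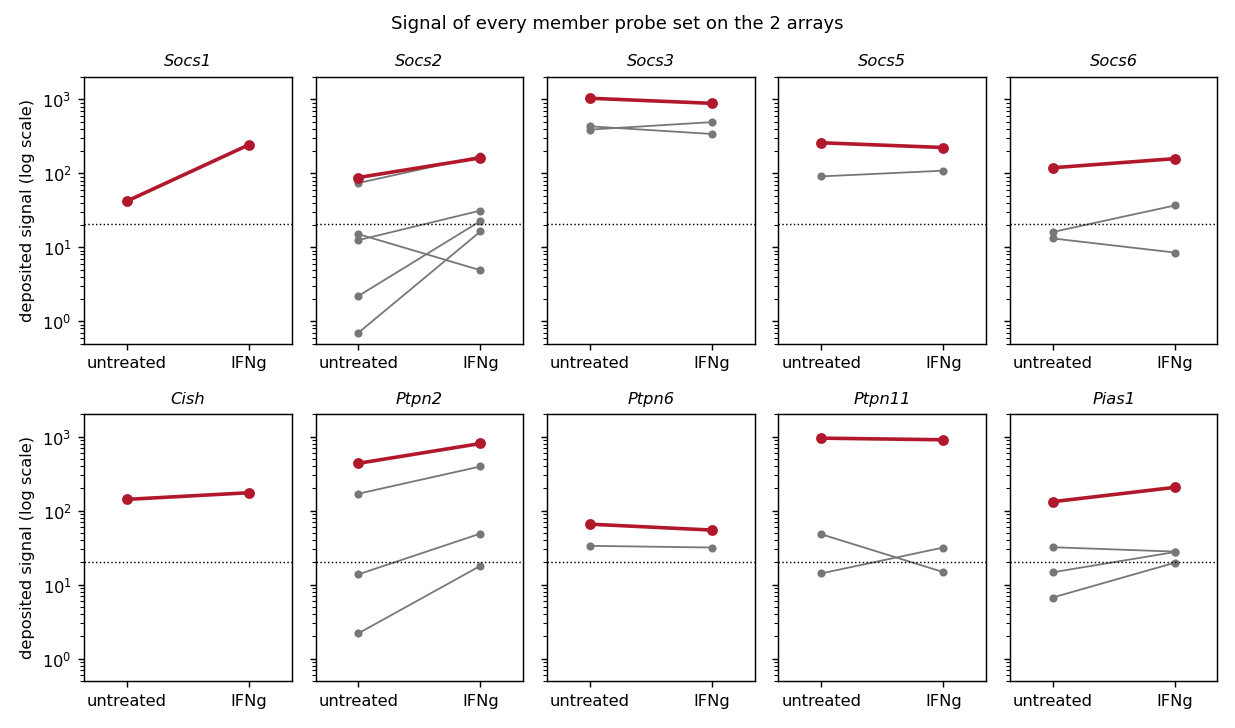
Deposited signal (log axis) of each of the 29 probe sets on the untreated and IFNg arrays, 1 panel per gene; the red line is the brightest probe set of the gene, grey lines are its other probe sets and the dotted line is the floor of 20.4. The Socs1 line goes from 42.2 to 244.3, the bright Ptpn2 and Socs2 lines also climb, and the red lines of Socs3, Socs5, Ptpn6 and Ptpn11 are nearly level.

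Promoter sequences were available for 6 of the 10 members (Socs1, Socs3, Cish, Ptpn6, Ptpn11 and Pias1) from RefSeq, build GRCm38.p6, each running from 250 bases before to 50 bases after the annotated start. They were searched on both strands for 2 motifs of this pathway: the gamma-activated site TTCNNNGAA, the form STAT dimers bind, which reads the same on either strand, and the interferon response repeat, GAAA followed by any 2 bases and a further GAAA, of the kind bound by interferon regulatory factors. The 3 promoters with a match are shown 5′ to 3′ on the gene's strand, with matched letters in capitals, so that Socs1 can be read beside 2 SOCS-family members that stayed within 2-fold. Socs1 lies at chr16:10785487-10785786 on the minus strand, Cish at chr9:107296409-107296708 on the plus strand and Socs3 at chr11:117969317-117969616 on the minus strand.
Socs1: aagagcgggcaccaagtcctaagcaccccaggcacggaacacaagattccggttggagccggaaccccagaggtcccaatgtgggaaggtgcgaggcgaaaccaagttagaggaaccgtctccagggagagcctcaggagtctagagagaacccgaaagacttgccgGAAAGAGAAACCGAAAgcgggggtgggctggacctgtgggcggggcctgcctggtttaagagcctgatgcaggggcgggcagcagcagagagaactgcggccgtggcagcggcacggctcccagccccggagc
Cish: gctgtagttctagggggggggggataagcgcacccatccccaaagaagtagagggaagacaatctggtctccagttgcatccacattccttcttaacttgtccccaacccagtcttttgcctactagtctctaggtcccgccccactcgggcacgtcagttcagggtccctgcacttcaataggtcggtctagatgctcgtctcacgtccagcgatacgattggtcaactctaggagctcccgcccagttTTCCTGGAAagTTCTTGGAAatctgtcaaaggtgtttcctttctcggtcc
Socs3: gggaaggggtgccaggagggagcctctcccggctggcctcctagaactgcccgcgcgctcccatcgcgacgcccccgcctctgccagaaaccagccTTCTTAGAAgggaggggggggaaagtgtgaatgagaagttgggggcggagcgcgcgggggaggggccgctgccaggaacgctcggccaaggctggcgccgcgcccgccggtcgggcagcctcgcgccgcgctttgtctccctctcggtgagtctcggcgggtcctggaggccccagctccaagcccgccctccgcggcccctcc

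The Socs1 promoter holds 2 overlapping matches to the interferon response repeat, at positions -83 to -74 and -77 to -68 from the start, and no gamma-activated site. A match to this repeat occurs in 3.44% of the 32851 promoters of that length in the RefSeq table, and 0.225% hold 2 or more. Cish holds 2 gamma-activated sites, at bases 1 to 9 and 12 to 20 after the start, and Socs3 holds 1, at positions -154 to -146. At least 1 such site occurs in 8.3% of all promoters and at least 2 in 0.457%. The promoters of Ptpn6, Ptpn11 and Pias1 have neither motif within this window. A match describes letters only. Cish and Socs3 carry gamma-activated sites and had log2 ratios of 0.30 and -0.23. Socs1 carries none in this window and had 2.53. Whether either motif bears on these ratios was not tested.

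Socs1, the main inhibitor of IFNg receptor signalling in the family, is measured by a single probe set (1450446_a_at), with a signal of 42.2 untreated and 244.3 with IFNg. Both signals lie above the floor, so the 5.79-fold (log2 ratio 2.53) is a ratio and not a bound, although the untreated signal is dim. Among 10441 genes with both signals above the floor, Socs1 ranked 67th from the highest ratio, and 0.642% had a ratio as high or higher. A further 17 genes, under the floor on the untreated array, had a bound at or above that ratio. Among the 4534 genes within 1 log2 unit of its mean signal and above the floor on both arrays, 25 had such a ratio (Socs1 included). When the floor was raised to 86.6, the pooled 75th percentile, the untreated signal fell under it and the log2 ratio became a bound of at least 1.5. Genes of like brightness with the nearest ratio over the 2 arrays were Ifit1bl1 (27.0 and 155.8, log2 ratio 2.53), Epha3 (21.4 and 126.5, 2.56) and Trim30d (44.0 and 260.4, 2.56).

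Socs2 and Cish, feedback inhibitors best known from growth hormone and STAT5 signalling, differed less. Of the 6 Socs2 probe sets, the 2 above the floor on both arrays were both higher with IFNg. The brightest (1449109_at) went from 87.9 to 162.0, a 1.84-fold excess (log2 ratio 0.88). The second (1418507_s_at), whose ID marks sequence shared with other transcripts, went from 74.1 to 170.6, a 2.30-fold excess (log2 ratio 1.20). These ratios lie within 1 SD of probe sets of a gene (0.44) of each other, and both exceed that SD. A further 2 dim Socs2 probe sets were above the floor only with IFNg, at signals of 31.4 and 22.7, which gives bounds of at least 0.62 and 0.15. The last 2 lay under the floor throughout, at signals of 15.1 and 4.9 and of 0.7 and 16.4. Cish has 1 probe set (1448724_at), with signals of 142.4 and 175.0. Its log2 ratio of 0.30 is smaller than the SD between probe sets, and 28.4% of genes above the floor on both arrays had a ratio as high.

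Socs3, the inhibitor of gp130 cytokine and leptin receptors, had 3 probe sets above the floor on both arrays, and they did not share a direction. The brightest (1455899_x_at) had signals of 1036.1 untreated and 884.8 with IFNg (log2 ratio -0.23). A second (1456212_x_at) had 432.6 and 340.9 (-0.34), and a further one (1416576_at) had 390.6 and 492.9 (0.34). The first pair carry an ID that marks probes matching several transcripts. Without them the gene takes the value 0.34, so no direction can be given for Socs3. All 3 were within 1.27-fold in either direction.

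Socs5 and Socs6, members linked among others to epidermal growth factor and other receptor tyrosine kinase signalling, also stayed within 2-fold. The brighter Socs5 probe set had signals of 259.2 and 223.6 (log2 ratio -0.21) and the other 91.0 and 108.7 (0.26), again on opposite sides of 0 and each smaller than the SD between probe sets. Socs6 had signals of 119.1 and 158.1 by its brightest probe set, a log2 ratio of 0.41. A second Socs6 probe set rested at 16.1, under the floor, on the untreated array and at 36.8 with IFNg, a bound of at least 0.85, and the third was at the floor on both.

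**Figure D2:**
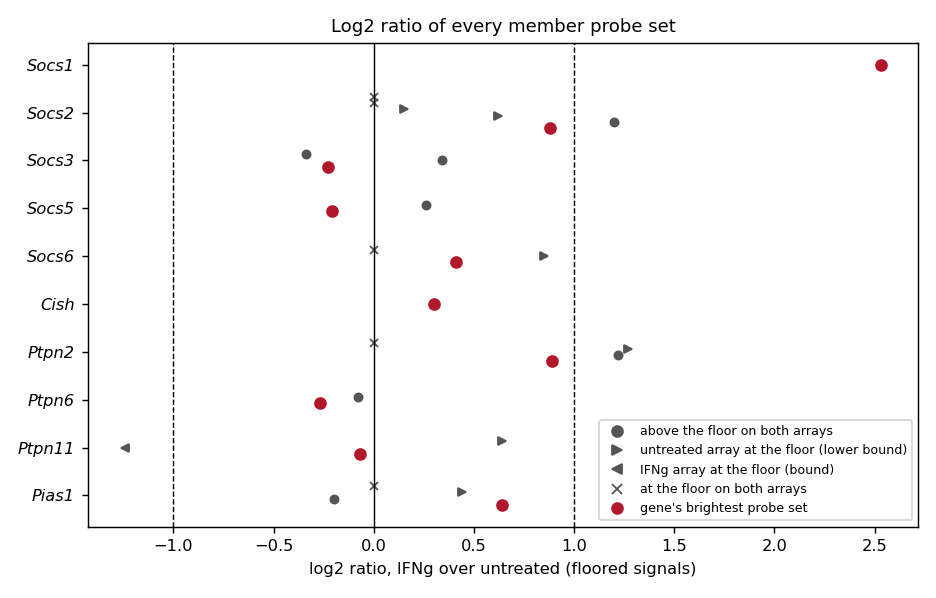
Log2 ratio of IFNg over untreated for every probe set of the 10 genes, from floored signals; red marks the brightest probe set of a gene, triangles are bounds pointing the way the true ratio may lie, crosses have both arrays at the floor and dashed lines mark 2-fold. Socs1 stands alone at 2.53, the probe sets of Ptpn2 and Socs2 above the floor on both arrays lie between 0.88 and 1.22, and those of Socs3 and Socs5 fall on both sides of 0.

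Ptpn2, the gene for the T-cell protein tyrosine phosphatase, was higher with IFNg by all 3 of its probe sets that gave a ratio. The brightest (1438562_a_at) had signals of 437.5 untreated and 810.5 with IFNg, a 1.85-fold excess (log2 ratio 0.89). The next (1417140_a_at) had 169.8 and 396.6, a 2.34-fold excess (1.22). A dim one (1425197_at) was under the floor untreated, at 13.8, and at 49.1 with IFNg, which gives at least 2.41-fold (1.27). The fourth lay under the floor throughout, at 2.2 and 18.0. The brightest was just short of 2-fold, and 11.3% of genes above the floor on both arrays had a ratio as high or higher. After a loess correction its log2 ratio was 1.02, which makes Ptpn2 a second member past 2-fold.

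Ptpn6, the gene for SHP-1, a phosphatase abundant in blood cells and present at lower levels in epithelia, had dim signals. The 2 probe sets read 65.8 and 54.7 (1456694_x_at, log2 ratio -0.27) and 33.5 and 31.8 (1460188_at, -0.08). Both ratios are smaller than the SD between probe sets. Of 18 leukocyte and macrophage markers, 17 matched a probe set of their own, 13 of these were measured, 3 were 2-fold lower or more on the IFNg array and 1 was 2-fold higher. Csf1r was at 202.8 and 77.5, Fcer1g at 46.0 and 10.6 and Laptm5 at 40.9 and 8.7; other probe sets above the floor on both arrays were lower by less, at log2 ratios of -0.28 and -0.56 for Csf1r and -0.19 and -0.55 for Laptm5. In the other direction, Cd52 was at 40.1 and 101.4. Within 2-fold but brighter were Lyz2 (660.8 and 486.5), Cd68 (139.6 and 87.6) and Cd14 (117.3 and 89.8). Dimmer ones were Itgb2 (60.9 and 31.1), Tyrobp (56.3 and 31.4), Adgre1 (51.3 and 44.8), Coro1a (25.5 and 27.6) and Vav1 (21.2 and 13.3). The CD45 gene Ptprc, expressed by all leukocytes, had 20.8 and 7.0, and Aif1, Itgam, Was and Cd3e were at the floor on both arrays. The summed signal of the matched markers was 1504.1 untreated and 1043.0 with IFNg, and its part in the Ptpn6 signal was not tested. In RNA from a whole culture, fewer cells of a type and less RNA per cell cannot be told apart.

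Ptpn11, the gene for SHP-2, which also relays growth factor signals, was nearly level by its bright probe set (1451225_at), with signals of 957.0 and 910.2 (log2 ratio -0.07). Its 2 dim probe sets went opposite ways. One (1421196_at) had 48.1 untreated and 14.8, under the floor, with IFNg, which gives at least 2.36-fold lower (-1.24). The other (1427699_a_at) had 14.2, under the floor, and 31.8, which gives at least 0.64. Of the 24 member probe sets above the floor on 1 or both arrays, 1421196_at was the single one 2-fold lower, and 4 were 2-fold higher: that of Socs1, 1 of Socs2 and 2 of Ptpn2. These 4 make 16.7% of the 24, against a background of 9.66% of 25831 probe sets 2-fold higher and 4.42% 2-fold lower. Probe sets of a gene share their transcript and are not independent.

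Pias1, a SUMO ligase that restrains activated STAT proteins, was 1.56-fold higher by its brightest probe set (1422581_at), with signals of 132.4 and 206.8 (log2 ratio 0.64). That exceeds the SD between probe sets, but a dimmer probe set (1455611_at) had 32.1 and 28.0 (-0.20). A further one was under the floor untreated, at 14.7, and at 27.6 with IFNg, a bound of at least 0.44, and the fourth was at the floor on both. A ratio as high as that of the brightest was found for 17.0% of genes above the floor on both arrays.

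**Figure D3:**
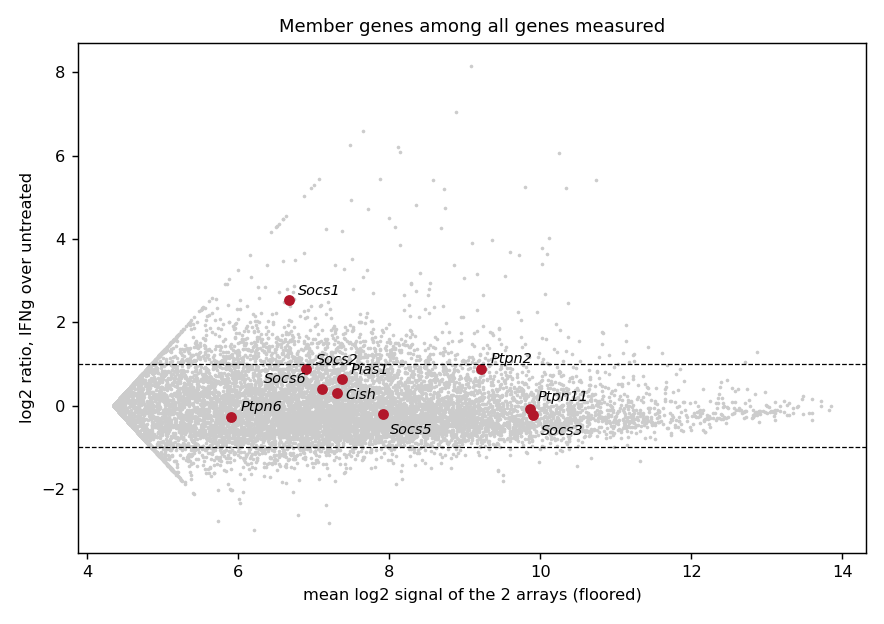
Log2 ratio of IFNg over untreated against the mean log2 signal for the 12743 genes measured (grey), with the 10 members in red and 2-fold as dashed lines. Socs1, at 2.53, lies above the main body of genes of its brightness. Ptpn2 (0.89) and Socs2 (0.88) lie just under the 2-fold line. Of genes within 1 log2 unit of their mean signal and above the floor on both arrays, 8.93% and 14.3% had a ratio as high or higher. The other 7 members have lower ratios.

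The rest of the pathway gives these values a setting. Over all genes measured, 8.82% were 2-fold higher and 4.48% were 2-fold lower, which is the background for each list count below. Of the kinases, Jak2 (59.3 and 314.8, 5.31-fold higher) and Jak1 (325.3 and 913.4, 2.81-fold higher) passed 2-fold, while Jak3 (log2 ratio 0.23) and Tyk2 (0.29) did not. The second Jak2 probe set had a log2 ratio of 2.19, and further Jak1 probe sets had 1.05 and, for a dim one, -0.06. By their brightest probe sets, the Jak2, Jak1 and Socs1 transcripts were thus all higher on the IFNg array, by factors of 5.31, 2.81 and 5.79. Kinase protein was not measured. The IFNg receptor genes lay within 2-fold, with Ifngr1 at 163.5 and 185.3 (log2 ratio 0.18) and Ifngr2 at 385.0 and 202.8 (-0.93, and -0.77 by its other probe set).

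Among 12 receptors listed, 11 matched and were measured, 2 were at least 2-fold higher and 0 were 2-fold lower. The higher ones were Lifr, a gp130 partner that binds leukemia inhibitory factor (270.2 and 906.8, 3.36-fold), and the growth hormone receptor gene Ghr (377.8 and 785.8, 2.08-fold), of which another bright probe set had a log2 ratio of -0.21. The oncostatin M receptor gene Osmr, at 785.8 and 1570.3, was just short of 2-fold. The shared chain gene Il6st was at 1005.2 and 1469.1 (0.55), with 0.68, 0.01 and -0.22 by its dimmer probe sets.

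The STAT list had 5 measured members, 1 of them 2-fold higher and 1 2-fold lower. Stat2, which acts in type I interferon signalling, was 2.87-fold higher (134.4 and 385.9), and its other probe set had a log2 ratio of 1.31. Stat5a, which transmits growth hormone and prolactin signals, was 2.30-fold lower (164.5 and 71.4), and its other probe set had -0.60. Stat3 (0.07), Stat6 (-0.25) and Stat5b (0.09) lay within 2-fold, although a dimmer Stat5b probe set had -1.05 and dim Stat3 probe sets gave at least 1.77 higher and -0.82. Stat4 was at the floor on both arrays.

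Genes known to be induced by IFNg were at least 2-fold higher in 15 of 15 listed members, with a median log2 ratio of at least 4.29, since 3 of the values (Batf2, Cd274 and Ciita) are bounds. These genes were listed as known responders and with earlier results of these data known, so the count is not a test. The highest were Cxcl9 (285-fold), Gbp2, Cxcl10, Igtp, Psmb9 and Irf8 (30.4-fold). Nmi, an interferon-inducible STAT-binding protein gene, was at 69.2 and 586.8 (8.48-fold), and the transcription factor gene Irf1 at 319.1 and 3391.1 (10.6-fold). Of these 15 genes, 14 had a log2 ratio above that of Socs1 and 1, Ciita (at least 1.24), had a bound below it. Of 13 listed STAT3 and STAT5 target genes, 0 passed 2-fold in either direction by their brightest probe set, with a median of -0.10; over all genes measured, 86.7% lay within 2-fold. Bcl6 had 0.52 and, by its other probe set, -0.38, and Pim1 had 0.30 and 0.34. Igf1 had -0.70 and -0.64 by 2 probe sets but 1.20 and 1.52 by 2 dimmer ones, so no direction can be given for it. A dimmer Hif1a probe set also passed 2-fold (1.33), against 0.38 by the brightest.

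Family relatives and partners of the 10 genes are counted by their brightest probe sets against the same 86.7% of all genes within 2-fold, so a count of 0 past 2-fold in lists this short is near the background. The remaining SOCS genes were Socs4, at 42.1 and 77.4 (log2 ratio 0.88) with its other 3 probe sets at the floor on both arrays, and Socs7, at 139.7 and 126.1 (-0.15). Dimmer Socs7 probe sets went the other way, at 60.4 and 71.6 (0.25) and, as a bound, at least 0.65, so no direction can be given for it. Among 7 measured PIAS and SUMO-pathway genes, 0 passed 2-fold: Pias2 had 0.17, Pias3 -0.53 and Pias4 -0.33, and a second Pias3 probe set had -1.04. Among 7 other JAK-STAT phosphatases, 0 passed 2-fold. Ptpn1, the closest relative of Ptpn2, was at 807.5 and 730.3 (-0.15, and -0.05 by its other probe set), and Ptpn12 was at 271.5 and 470.7 (0.79), with its other 3 probe sets also higher (0.35 to 1.04). Of 11 measured partners of SHP-1 and SHP-2, 0 passed 2-fold; Sos1 had 0.70 and, by a dimmer probe set, 0.00, and Pdgfrb had -0.58 and -0.20. Pdcd1, the gene for PD-1, whose cytoplasmic tail recruits SHP-2 in T cells, had signals of 2.9 and 3.7, under the floor.

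The other feedback inhibitors and ubiquitin ligases had 2 of 9 measured members 2-fold higher and 0 2-fold lower, with a median log2 ratio of -0.44. The higher ones were Trim21, an interferon-inducible ubiquitin ligase gene (85.8 and 563.1, 6.56-fold, with 1.92 by its other probe set), and Usp18, an ISG15-specific protease that also restrains the type I interferon receptor (427.0 and 1187.7, 2.78-fold). Sh2b3, the gene for the JAK2-binding adaptor LNK, was at 139.1 and 71.3 (-0.96). Of the 5 measured elongin, cullin and RING partners of the SOCS box, Cul2 was 2.63-fold higher (129.5 and 340.1, with 0.52 by its dimmer probe set). Cul5, the cullin usually paired with the SOCS box, was at 35.1 and 48.3 (0.46), Eloc at 917.6 and 1284.6 (0.49) and Elob at 2839.0 and 2232.5 (-0.35). Over all these lists, 23 of 89 measured genes were 2-fold higher and 1 was 2-fold lower. The background was 8.82% higher and 4.48% lower among all genes measured. Of the 23, 15 were the listed IFNg-induced genes, chosen as known to respond, so the pooled count is no result about the rest of the pathway.

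**Figure D4:**
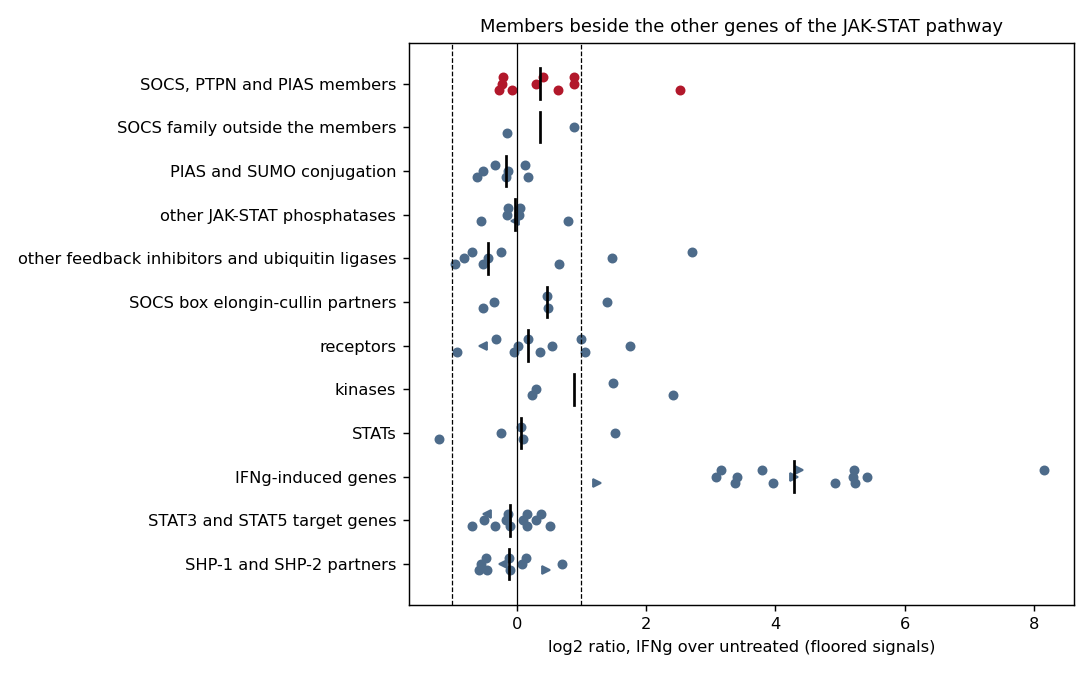
Log2 ratio of IFNg over untreated for the 10 members (red) and for each list of other JAK-STAT pathway genes measured (blue; triangles are bounds); the black bar is the median of a list and dashed lines mark 2-fold. The IFNg-induced genes lie apart at a median of at least 4.29, while the members' median is 0.35 and the kinases' 0.89.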

How the data were processed

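Per the labels' protocols, total RNA from each culture was amplified, biotin-labelled and hybridised to 1 array. The deposited values are probe-set intensity on a linear scale (45101 probe sets), and each array as deposited had a 2% trimmed mean of 100. For the summarisation software, the background correction and any detection calls, the sources used here give no name, and a floor on dim signals was used. The 64 control probe sets were left out, and both arrays were scaled to a common 2% trimmed mean, floored at the pooled median (20.4) and log2-transformed. Signals near the floor hold an unknown share of background.

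Genes were named from the platform's annotation, which can be old, by probe sets with 1 gene (34945, against 932 with several and 9160 with none). A gene was represented by its brightest probe set (by mean log2 signal), and each member probe set is also given by itself. Of 34958 annotation rows with 1 Entrez identifier, 99.4% were found in the RefSeq gene table of GRCm38.p6. No build is named for the signals, so the only coordinates given are those of the RefSeq promoter sequences. Of the 105 pathway symbols listed, 94 matched.

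No test was possible with 1 array in each group; genes were counted at 2-fold. All members, the JAK, STAT and IFNg receptor genes and the PIAS, SOCS and Ptpn1 relatives were named whatever their value, as were genes past 2-fold in a list (up to 6) and a few within it. Some further genes (Cul5, Eloc, Elob, Sh2b3, Il6st, Osmr, Pdcd1, Nmi, Irf1, Ciita, Igf1, Hif1a and markers within 2-fold) were named after their values were seen. The members and lists were chosen with earlier results of these data known. The procedure was tried on simulated arrays with changes well past 2-fold, set in bright genes only, and with less noise than the spread between probe sets. That trial does not cover dim genes or changes near 2-fold. Alternatives covered scaling, the floor, the probe-set rule and the threshold. Computation used scipy 1.17.1 and pandas 2.3.3 under Python 3.11.15, loess curves statsmodels 0.14.6, arrays numpy 2.4.6, and plots matplotlib 3.10.9. One item is not reported here.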

Additional observations from a re-analysis of the deposited data

How the results depend on the processing

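No paired analysis was possible because each group has 1 array. Socs1 kept a log2 ratio of at least 1.5 under the 9 alternatives that could measure it; leaving out all probe sets whose IDs end in _s_at, _x_at or _a_at removed its only probe set, and Ptpn2 (1.27, a bound) was then the member past 2-fold. An alternative added after the data were seen, which kept the _a_at probe sets, gave 2.53. The count of members 2-fold higher was 2 after loess (with Ptpn2 at 1.02) and 4 at a 1.5-fold threshold, against 1 otherwise. Over its alternatives Ptpn2 ranged from 0.81 to 1.27, Socs2 from 0.48 to 0.98 and Pias1 from 0.22 to 0.71. Signs differed between alternatives for Socs3 (-0.31 to 0.34), Socs5 (-0.29 to 0.02) and Ptpn11 (-0.22 to 0.08). The count of other pathway genes 2-fold higher (23) moved by less than 1.5 times under every alternative, and 0 members were 2-fold lower under any. The members' median stayed within 1 SD between probe sets of 0.35. Over all genes, the counts higher and lower were 2258 and 2059 with a floor at the 25th percentile, 574 and 163 at the 75th, 591 and 357 with probe sets averaged, 2287 and 2378 at 1.5-fold and 336 and 59 at 3-fold. A lower floor or threshold admits more genes and a higher one fewer. The averaging takes in probe sets at the floor on both arrays, whose floored ratio is 0 by construction. How much of the fall in counts this makes was not tested. A common 75th percentile gave 971 and 751, with a median log2 ratio of -0.18. Ptpn6 and the dim probe sets of Socs2, Ptpn11 and Pias1 lie near the floor, which limits what their ratios can show. The untreated Socs1 signal (42.2) is dim too, so the size of its ratio depends on how dim signals are handled. Its log2 ratio was 2.16 with 16 added to each signal in place of the floor.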
